A study of Mus musculus with 6 samples.

Results

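The thick ascending limb (TAL) of the loop of Henle was followed here through 6 genes chosen by symbol: Umod, Slc12a1, Bsnd, Kcnj1, Kcnj10 and Kcnj16. They are 6 of the 24422 genes in the count tables, and all 6 were among the 15145 genes with enough reads to be tested. RNA was sequenced from the kidneys of 6 wild type C57BL/6 mice at postnatal day 15. The mothers of the 3 FeD pups ate an iron-deficient diet (2 to 6 ppm iron), and those of the 3 control pups an iron-sufficient diet (220 ppm iron). The dams were 8 weeks old when the diets began. By the labels the diets started a month before mating and lasted through pregnancy and nursing to day 15, whereas the methods of the study give a shorter lead of some weeks. The comparison asks whether iron shortage in the mother was followed by altered gene expression in the pup kidney. The diet acted on the whole animal. The study reports that much of the FeD litters was lost by birth, so the FeD kidneys came from survivors. The effect of this on the values was not tested. Litters were not given, so litter and diet cannot be told apart, and P values measure only the spread between these kidneys.

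The TAL reabsorbs salt without water, which dilutes the urine and builds the gradient of the medulla. The apical cotransporter NKCC2, encoded by Slc12a1, brings in sodium, potassium and chloride, and the apical potassium channel ROMK, encoded by Kcnj1, returns the potassium to the lumen. Chloride leaves across the basolateral membrane through chloride channels that need the subunit barttin, encoded by Bsnd. Kcnj10 and Kcnj16 encode Kir4.1 and Kir5.1, which join in a basolateral potassium channel of the TAL and, more prominently, of the distal convoluted tubule. Umod encodes uromodulin, the glycoprotein that TAL cells shed into the urine. Inherited loss of NKCC2, ROMK or barttin causes Bartter syndrome. Bsnd is also expressed in the thin ascending limb, distal convoluted tubule and intercalated cells, and Kcnj1 in the distal tubule and collecting duct, so these RNAs are not specific to the TAL.

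Libraries held 16189041 to 20374327 counted reads in control kidneys and 13732173 to 20853293 in FeD kidneys. Levels are given as counts per 1000000 counted reads (CPM). The floor of 3 counts, 0.144 to 0.218 CPM, lay far below the levels of the 6 genes. FeD kidneys differed more from each other than control kidneys did. A chi-square of the counts per degree of freedom was 3.77 to 7.36 between control kidneys and 11.5 between FeD kidneys 1 and 2, but 24.0 and 30.4 between FeD kidney 3 and these kidneys. Each result is therefore given with FeD kidney 3 and, where stated, without it. CPM were scaled by edgeR's TMM factors, a correction for library composition. A gene was called higher or lower at an adjusted P under 0.05 (edgeR quasi-likelihood test, Benjamini-Hochberg over all tested genes). By this rule 22.4% of tested genes were higher and 23.3% lower in FeD kidneys.

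Umod, Kcnj1 and Slc12a1 are shown by the 250 bases before their RefSeq start sites. Umod and Kcnj1 had the most similar profiles of any pair of the 6 genes over the 6 kidneys, and Slc12a1 is the abundant TAL transporter against which the others are set below. RefSeq promoter entries (GRCm38.p6) matched 5 of the 6 genes. The windows are chr7:119479263-119479512 (minus strand) for Umod, chr9:32393735-32393984 (plus strand) for Kcnj1 and chr2:125152350-125152599 (plus strand) for Slc12a1. Capitals mark matches, on either strand, to the core of a hypoxia response element (ACGTG or GCGTG).
Umod: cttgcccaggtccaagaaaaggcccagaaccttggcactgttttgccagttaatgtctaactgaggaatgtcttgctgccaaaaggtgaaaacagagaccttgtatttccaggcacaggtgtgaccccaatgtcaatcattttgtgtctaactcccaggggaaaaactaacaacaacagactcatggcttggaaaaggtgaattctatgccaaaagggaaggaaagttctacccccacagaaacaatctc
Kcnj1: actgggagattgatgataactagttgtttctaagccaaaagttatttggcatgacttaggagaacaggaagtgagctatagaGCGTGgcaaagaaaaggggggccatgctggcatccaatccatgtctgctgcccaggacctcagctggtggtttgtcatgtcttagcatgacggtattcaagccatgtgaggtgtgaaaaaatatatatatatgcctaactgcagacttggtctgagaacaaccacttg
Slc12a1: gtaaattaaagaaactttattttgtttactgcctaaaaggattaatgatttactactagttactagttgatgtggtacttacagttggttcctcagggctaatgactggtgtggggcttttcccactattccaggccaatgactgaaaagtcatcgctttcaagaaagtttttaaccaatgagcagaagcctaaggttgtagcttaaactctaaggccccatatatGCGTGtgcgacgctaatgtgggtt
The Kcnj1 and Slc12a1 windows each held 1 core, with its first base 168 and 24 bases before the start. The letters were not found in the Umod window. Of the windows not shown, 1 of Kcnj16 held a core 141 bases before its start. The other Kcnj16 windows and that of Kcnj10 held none. Among 32851 promoter windows of the same length, 38.6% held the core, so these matches are descriptions only.

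In FeD kidneys 1 of the 6 genes, Bsnd, was called lower and 0 were called higher, beside 23.3% and 22.4% of all tested genes. Bsnd was also the only one of the 6 whose FeD and control kidneys did not overlap, which held for 58.1% of all tested genes. The median log2 fold change of the 6 genes was -0.16, beside -0.002 over all tested genes. In whole-kidney RNA fewer TAL cells and less RNA per cell cannot be told apart.

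Bsnd (mm9 chr4:106156061-106164888, minus strand, 4 exons) encodes barttin, a subunit that carries chloride channels to the membrane. Its level was 202.1, 201 and 222.1 CPM in control kidneys and 105.7, 95.76 and 109.5 CPM in FeD kidneys. Every FeD kidney lay well below every control kidney, and both groups were tight. The mean fell from 208.4 ± 11.86 to 103.6 ± 7.103 CPM (SD, n = 3), a fold of 0.498 with a 95% interval of 0.443 to 0.559. The log2 fold change was -1.01 (SE 0.073, edgeR adjusted P = 5.2e-05), and 6.15% of tested genes had a lower one. At a threshold of at least 2-fold, Bsnd was among the 5.69% of genes called lower, beside 4.34% called higher. Without FeD kidney 3 the log2 fold change was -1.04 (edgeR adjusted P = 2.8e-05). Bsnd was called lower in 12 of 12 alternative analyses, but it sat on the 2-fold threshold and passed it in 7 of 12.

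Umod (mm9 chr7:126606380-126622769, minus strand, 11 exons) encodes uromodulin, the most abundant protein of normal urine. Its level was 2684, 2612 and 2920 CPM in control kidneys and 1910, 1698 and 2618 CPM in FeD kidneys. FeD kidneys 1 and 2 lay below all control kidneys, while FeD kidney 3 lay just above the lowest control. The means were 2739 ± 160.9 CPM in control and 2075 ± 481.8 CPM in FeD kidneys (SD, n = 3). The log2 fold change of -0.40 (SE 0.155, edgeR unadjusted P = 0.0319) did not pass after adjustment (edgeR adjusted P = 0.065). Without FeD kidney 3 it was -0.59 (SE 0.083, edgeR adjusted P = 0.00082), and with all kidneys DESeq2 gave -0.39 (DESeq2 adjusted P = 0.02). Without FeD kidney 2, the lowest, it was -0.25 (edgeR adjusted P = 0.18). The value and call for Umod therefore depended on single kidneys and on the test.

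Slc12a1 (mm9 chr2:124978241-125055738, plus strand, 28 exons) encodes NKCC2, the target of loop diuretics. Its level was 3310, 3081 and 3177 CPM in control kidneys and 3195, 2654 and 4641 CPM in FeD kidneys. FeD kidney 1 lay within the control range, FeD kidney 2 below it and FeD kidney 3 far above it. The means were 3189 ± 115.4 and 3497 ± 1027 CPM (SD, n = 3), with a log2 fold change of 0.13 (SE 0.185, edgeR adjusted P = 0.59). Its 95% interval ran from -0.29 to 0.56, so neither direction was resolved. The sign turned when FeD kidney 3 was left out, to -0.11 (SE 0.093, edgeR adjusted P = 0.34), and leaving out FeD kidney 2 gave 0.32 (edgeR adjusted P = 0.13).

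Kcnj1 (mm9 chr9:32180003-32206777, plus strand, 3 exons) encodes ROMK. Its level was 387.1, 399.9 and 407.5 CPM in control kidneys and 317, 259.1 and 397.2 CPM in FeD kidneys. As for Umod, FeD kidneys 1 and 2 lay below the controls and FeD kidney 3 among them. The log2 fold change was -0.29 (SE 0.139, edgeR adjusted P = 0.11), with a 95% interval of the fold from 0.654 to 1.02. Leaving out FeD kidney 2, the lowest, gave -0.14 (edgeR adjusted P = 0.33), and leaving out FeD kidney 3, the highest, gave -0.45 (SE 0.088, edgeR adjusted P = 0.0038). Without FeD kidney 3 the fit thus brought the number of the 6 genes called lower to 3 (Umod, Bsnd and Kcnj1), where 24.8% of all genes then tested were lower and 25.6% higher. In DESeq2 with all kidneys the number was 2 (Umod and Bsnd), beside 19.7% of its genes lower.

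Kcnj10 (mm9 chr1:174271341-174304216, plus strand, 2 exons) encodes Kir4.1. Its level was 137.9, 149.1 and 155 CPM in control kidneys and 153.1, 150.4 and 132.8 CPM in FeD kidneys. The groups overlapped, and FeD kidney 3 was the lowest of the 6. The log2 fold change was -0.02 (SE 0.075, edgeR adjusted P = 0.85), and the 95% interval of the fold was 0.875 to 1.11. Leaving out FeD kidney 3 gave 0.05 (SE 0.058, edgeR adjusted P = 0.46).

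Kcnj16 (mm9 chr11:110829347-110889282, plus strand, 5 exons) encodes Kir5.1, which forms channels with Kir4.1. Its level was 437.7, 472.1 and 440.6 CPM in control kidneys and 544.7, 436.3 and 584 CPM in FeD kidneys. FeD kidneys 1 and 3 lay above all controls and FeD kidney 2 just below them. The log2 fold change was 0.21 (SE 0.11, edgeR adjusted P = 0.15), with a 95% interval of the fold from 0.973 to 1.38. Without FeD kidney 3 it was 0.14 (SE 0.097, edgeR adjusted P = 0.27). Without FeD kidney 2 it was 0.35 (edgeR adjusted P = 0.01).

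**Figure D1:**
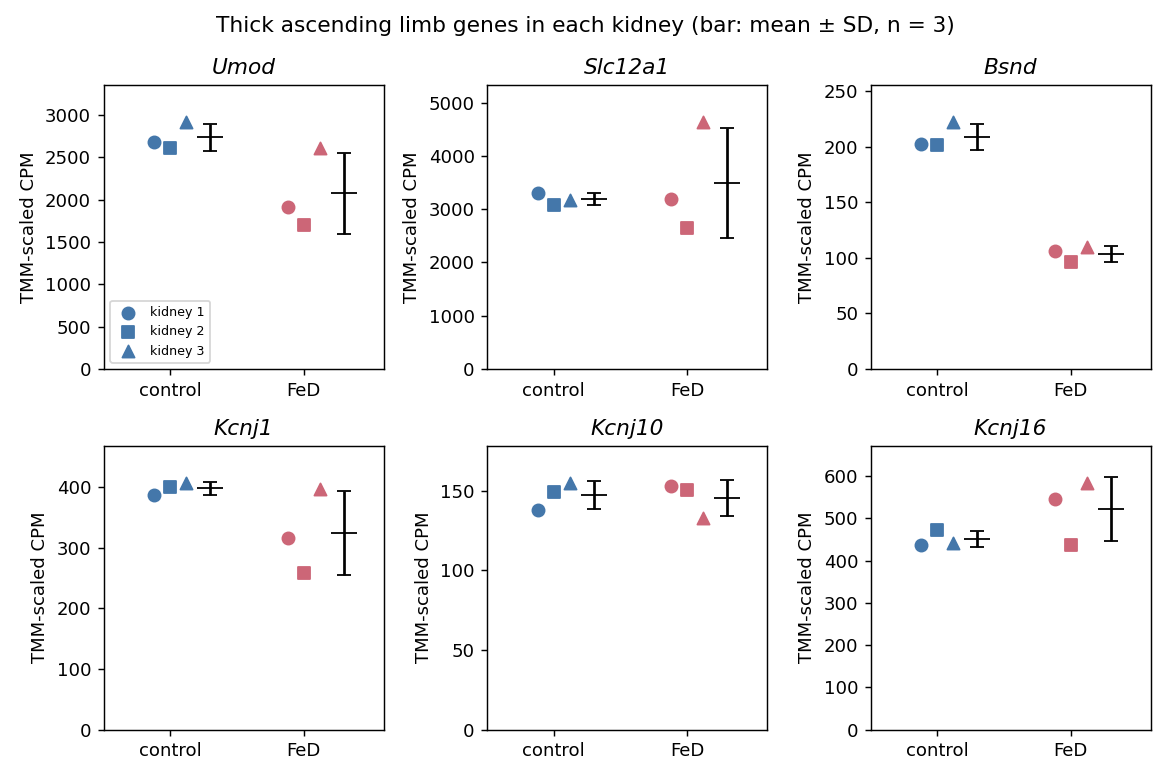
Level of each gene in every kidney, in CPM, with control kidneys at left and FeD kidneys at right of each panel, 1 symbol per kidney and a bar for the mean ± SD (n = 3). The Bsnd groups are apart (201 to 222.1 against 95.76 to 109.5 CPM), and FeD kidney 3 is the highest FeD kidney in every panel but that of Kcnj10.

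The genes also differed in how evenly FeD kidneys expressed them. The coefficient of variation among FeD kidneys was 29.4% for Slc12a1, 23.2% for Umod, 21.4% for Kcnj1 and 14.7% for Kcnj16, but 6.85% for Bsnd and 7.59% for Kcnj10. Among control kidneys the 6 genes varied by 2.58% to 5.89%. The median over tested genes with at least 50 normalized counts was 5.19% in control and 9.77% in FeD kidneys. FeD kidney 3 exceeded the mean of the other FeD kidneys 1.59-fold for Slc12a1, 1.45-fold for Umod and 1.38-fold for Kcnj1. The corresponding values were 1.19-fold for Kcnj16, 1.09-fold for Bsnd and 0.875-fold for Kcnj10.

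Levels of different genes were compared per kilobase of exon. In control kidneys the mean CPM per kilobase was 1110 for Umod, 553 for Slc12a1, 122 for Kcnj1, 114 for Kcnj16, 75.6 for Bsnd and 27.2 for Kcnj10. Kcnj1 and Kcnj16 overlapped between control kidneys (119 to 125 against 111 to 120), while the other neighbours in this order did not. In FeD kidneys the order was Umod (840), Slc12a1 (607), Kcnj16 (133), Kcnj1 (99.3), Bsnd (37.6) and Kcnj10 (26.9). There Umod and Slc12a1 overlapped across kidneys (687 to 1060 against 461 to 805), as did Kcnj16 and Kcnj1 (111 to 148 against 79.3 to 122). The 6 genes together took 0.69% to 0.728% of all reads in control kidneys and 0.53% to 0.842% in FeD kidneys. None of the 6 shares annotated exon bases with another gene.

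Ratios within a kidney do not depend on scaling between libraries. Per 100 reads of Slc12a1, Umod had 81.1, 84.8 and 91.9 reads in control kidneys and 59.8, 64 and 56.4 in FeD kidneys. Bsnd had 6.11, 6.52 and 6.99 reads in control and 3.31, 3.61 and 2.36 in FeD kidneys. Kcnj1 had 11.7, 13 and 12.8 reads in control and 9.92, 9.76 and 8.56 in FeD kidneys. For these 3 ratios every FeD kidney lay below every control kidney, FeD kidney 3 included. In FeD kidney 3, however, the denominator Slc12a1 was above all controls (4641 against 3081 to 3310 CPM). Umod (2618 CPM) and Kcnj1 (397.2 CPM) themselves lay within the control range there. The log2 differences were -0.52 for Umod, -1.10 for Bsnd and -0.41 for Kcnj1. Each had an exact two-sided permutation P of 0.1, the smallest that 3 against 3 kidneys can give, and 0.2 after adjustment over 6 ratios. These ratios share their denominator, so they are not separate evidence of each other. Kcnj10 to Slc12a1 (log2 difference -0.11, exact permutation P = 0.8), Kcnj16 to Slc12a1 (0.11, exact permutation P = 0.5) and Kcnj16 to Kcnj10 (0.22, exact permutation P = 0.3) overlapped between groups. The Kcnj10 ratio turned to 0.17 without FeD kidney 3, and the other 5 kept their direction.

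**Figure D2:**
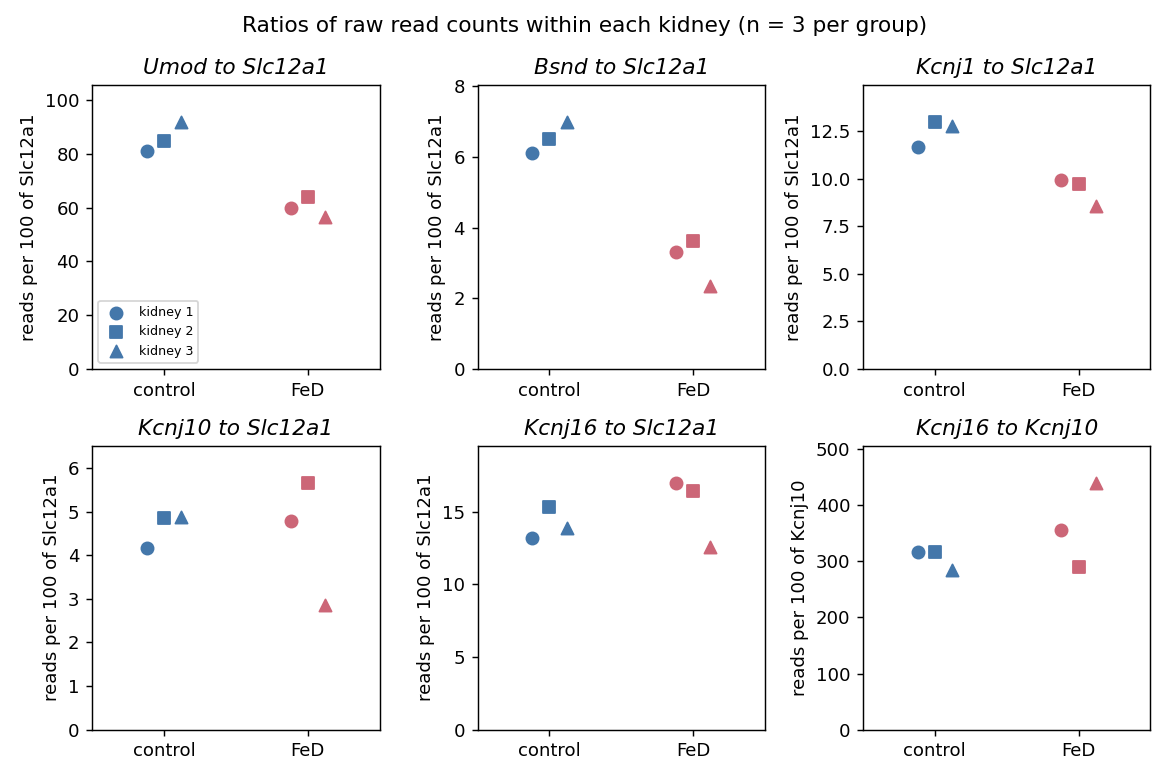
Reads of a gene per 100 reads of Slc12a1 in each kidney, and of Kcnj16 per 100 reads of Kcnj10, on linear axes, with 1 symbol per kidney for the control and FeD groups. The ratios of Umod, Bsnd and Kcnj1 to Slc12a1 are lower in all 3 FeD kidneys than in controls (Umod 56.4 to 64 against 81.1 to 91.9). The other panels overlap.

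The partners of these genes in TAL transport included called genes in both directions. Of 12 listed, 11 were tested (Cldn14, at 2 to 9 reads per kidney, was not). Of these, 2 were higher and 4 lower, beside 22.4% and 23.3% of all tested genes. Their median log2 fold change was -0.20. Claudin 19, which with claudin 16 makes the paracellular path for calcium and magnesium, fell from 217.7 ± 10.16 to 116.2 ± 11.45 CPM (SD, n = 3, Cldn19 log2 fold change -0.90, edgeR adjusted P = 0.00013). Fxyd2, the gamma subunit of the sodium pump, fell from 1654 ± 60.47 to 935.4 ± 108.7 CPM (-0.82, edgeR adjusted P = 0.00048). Slc4a2, an anion exchanger, also fell (-0.54, edgeR adjusted P = 0.00075, with 11.2% of its exon bases under a gene on the opposite strand). The claudin gene Cldn10 was lower too (-0.38, edgeR adjusted P = 0.036, lost without any 1 control kidney or FeD kidney 1 or 2). Counts per gene do not separate the transcripts of Cldn10. Cldn16 was not called (0.08, edgeR adjusted P = 0.64).

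Slc4a7, a sodium bicarbonate cotransporter, rose (0.69, edgeR adjusted P = 0.0041). The partner counts were 2 higher and 5 lower without FeD kidney 3, beside 25.6% and 24.8% of all genes then tested.

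Among 18 regulators of TAL and distal salt transport, 6 were higher, 4 lower and 8 not called. Over all tested genes, 22.4% were higher and 23.3% lower. The median log2 fold change of the regulators was -0.05. Casr, the calcium-sensing receptor, which restrains TAL transport, rose (0.48, edgeR adjusted P = 0.00093). So did Sgk1, a steroid-induced kinase (0.89, edgeR adjusted P = 0.0023), the ubiquitin ligase gene Nedd4l (0.55, edgeR adjusted P = 0.0015), Cab39, which aids the kinases SPAK and OSR1 (0.43, edgeR adjusted P = 0.00089), and Cul3 (0.28, edgeR adjusted P = 0.012, lost without control kidney 3 at 0.059). Wnk3, a kinase of the WNK family, rose from 2.776 ± 0.5329 to 14 ± 4.439 CPM (SD, n = 3, 2.33, edgeR adjusted P = 0.00028). The parathyroid hormone receptor Pth1r, which is also abundant in the proximal tubule, fell from 513 ± 12.97 to 172.6 ± 11.13 CPM (-1.57, edgeR adjusted P = 8.9e-06). Wnk4, with 7.38% of its exon bases so overlapped, also fell (-0.73, edgeR adjusted P = 0.0028), as did the receptors for vasopressin, Avpr2 (-0.67, edgeR adjusted P = 0.031), and prostaglandin E2, Ptger3 (-0.55, edgeR adjusted P = 0.042). Neither receptor call was stable. Avpr2 lost its call without control kidney 2 or 3 or FeD kidney 1 (edgeR adjusted P up to 0.11), and Ptger3 without any 1 control kidney or FeD kidney 1 (up to 0.14). Of the Avpr2 exon bases, 81.3% overlap Arhgap4 on the opposite strand, and without a known strand setting reads of these genes cannot be told apart. Stk39 (0.07, edgeR adjusted P = 0.6) and Oxsr1 (-0.04, edgeR adjusted P = 0.58), which encode the kinases that phosphorylate NKCC2, were not called. Leaving out FeD kidney 3 gave 6 regulators higher and 5 lower, beside 25.6% and 24.8% of all genes then tested.

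Of 6 transcription factors of the TAL, 0 were higher and 1, Esrrg, was lower (-0.19, edgeR adjusted P = 0.035, lost in DESeq2 and without any 1 control kidney or FeD kidney 1 or 2). The shares over all tested genes were 22.4% higher and 23.3% lower. Without FeD kidney 3, 4 of the 6 factors were lower, where 24.8% of all genes then tested were lower. With any other single kidney left out, 0 factors were lower.

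**Figure D3:**
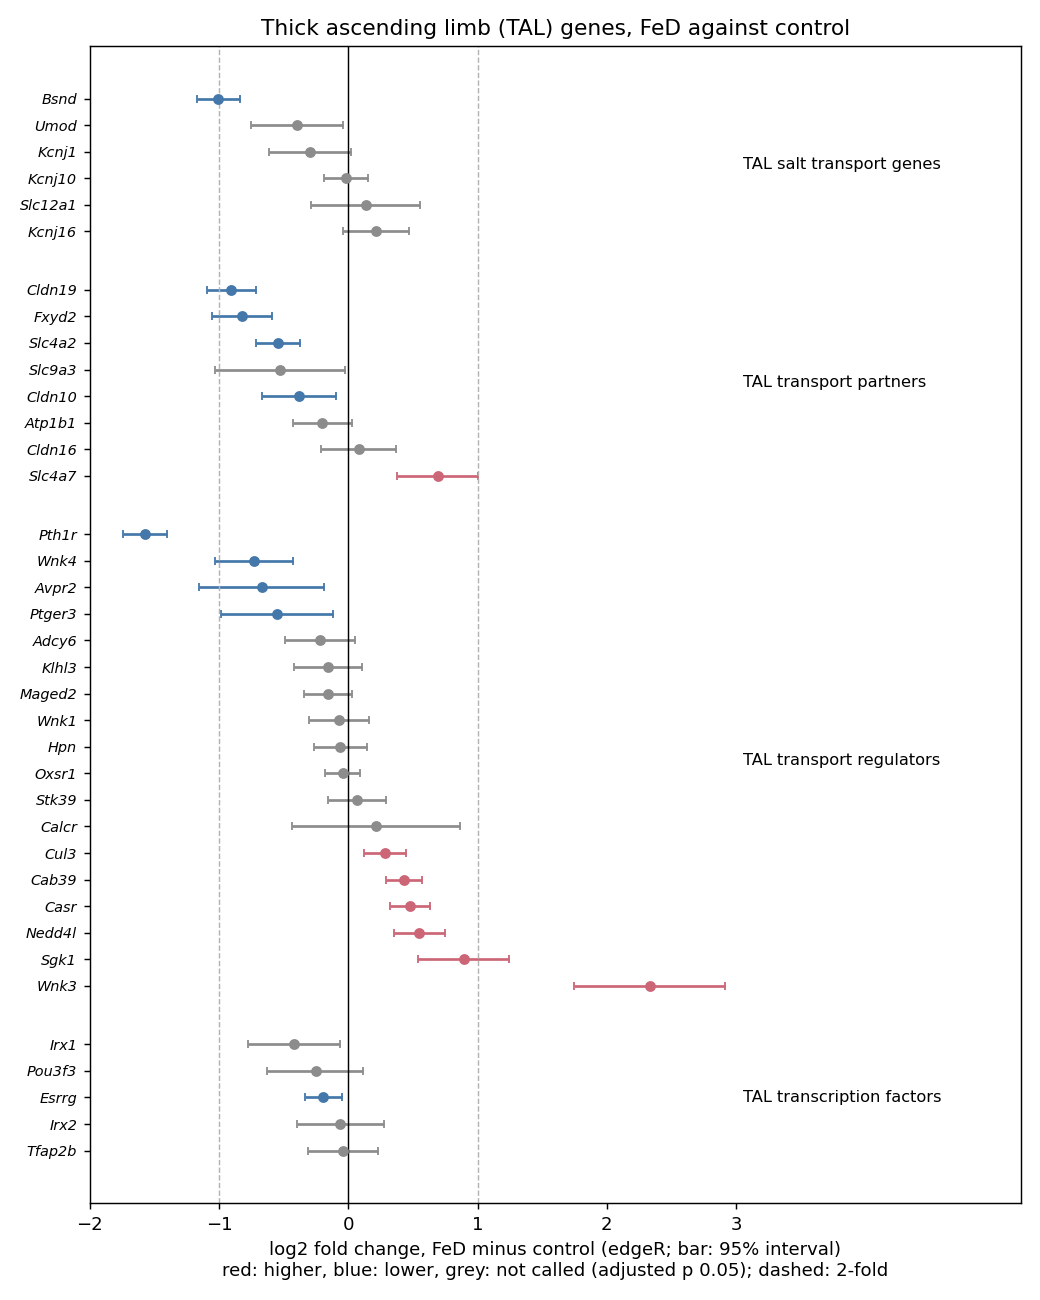
Log2 fold change of FeD against control for the 6 genes and for the transport partners, regulators and transcription factors reported here, each point with its 95% interval, red for higher, blue for lower and grey for not called. Bsnd lies at -1.01 with an interval clear of 0, while Wnk3 (2.33) and Pth1r (-1.57) mark the ends of the plotted range.

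Within the gene families, 11 of 15 Kcnj potassium channel genes were tested, of which 2 were higher and 2 lower. Over all tested genes, 22.4% were higher and 23.3% lower. Kcnj15 rose (0.47, edgeR adjusted P = 0.0074), as did Kcnj8, a subunit of ATP-sensitive channels of vessel walls (1.09, edgeR adjusted P = 5.5e-05). The lower ones, Kcnj11 and Kcnj12, were under 50 normalized counts and are named after their values were seen. The Kcnj12 call was lost in 8 of the 11 alternative analyses that tested it. These were any 1 kidney left out except control kidney 2, DESeq2, the replicate number as a block, and no filter on low counts. In the Slc12a family of cation-chloride cotransporters, 1 of 9 was higher and 3 were lower. Slc12a3, the thiazide-sensitive cotransporter of the distal convoluted tubule, fell (-1.56, edgeR adjusted P = 0.00026), as did the potassium-chloride cotransporters Slc12a7 (-0.71, edgeR adjusted P = 0.00017) and Slc12a4 (-0.41, edgeR adjusted P = 0.0072, with 8.49% of its exon bases under a gene on the opposite strand).

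Of 12 TAL markers other than the 6 genes, 7 were lower and 1, Casr, was higher, beside 23.3% and 22.4% of all tested genes. Their median log2 fold change was -0.40. The counts were 9 lower and 1 higher without FeD kidney 3, beside 24.8% and 25.6% of all genes then tested. Several of these markers also stand in the lists above. Egf, the precursor of epidermal growth factor made in the TAL and distal convoluted tubule, fell from 2299 ± 141.3 to 747 ± 313.3 CPM (SD, n = 3, -1.62, edgeR adjusted P = 0.0014). Tmem207 fell by 1.02 on the log2 scale (edgeR adjusted P = 0.0029). The summed level of the 12 markers was 3549 to 3867 CPM in control and 1360 to 2217 CPM in FeD kidneys, and without Egf it was 1339 to 1409 and 816.2 to 1109 CPM. Neither sum overlapped between groups, whereas Slc12a1 did.

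Markers of other cell types moved as well, where 22.4% of all tested genes were higher and 23.3% lower. Their part in the whole-kidney values of the 6 genes, and of partners and regulators such as Fxyd2 and Wnk4, was not tested. Of 7 distal convoluted tubule markers 4 were lower and 1 higher, and their sum was 2005 to 2753 CPM in control against 949.3 to 1136 CPM in FeD kidneys. Of 8 proximal tubule markers 7 were lower, with sums of 7548 to 8175 against 2810 to 3214 CPM. Of 8 intercalated cell markers 4 were lower and 2 higher (845.7 to 956.8 against 674.1 to 710.3 CPM). The sum of principal cell markers went the other way (1553 to 2084 against 2133 to 3447 CPM), with 4 of 8 higher and 2 lower. Most of its rise lay in Aqp2 (mean 697.2 in control, 1526 CPM in FeD kidneys) and Aqp3 (244.1 and 521.8 CPM). Scnn1b and Scnn1g were also higher, Avpr2 and Hsd11b2 were lower, and Aqp4 and Fxyd4 were not called. The 4 macula densa markers, of which 2 were higher, summed to 33.45 to 38.91 against 77 to 118.4 CPM. The higher ones were Pappa2 (mean 3.131 in control, 41.63 CPM in FeD kidneys) and Avpr1a (19.53 and 36.09 CPM), while Nos1 and Ptgs2 were not called. Endothelial markers were lower in 4 of 5 cases (629.5 to 655.7 against 414.6 to 547.9 CPM). Thin limb markers (1 of 3 lower), podocyte markers (1 of 5 higher) and macrophage markers (2 of 4 higher, 1 lower) had sums that overlapped between groups. Among the red blood cell markers the 4 globin genes were at 0 in all 6 kidneys, and Alas2, at 107 to 688 reads per kidney, was not called. The globin counts were not taken as a measure of blood content, and why they were 0 was not tested. No marker of the other lists was at 0 throughout.

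**Figure D4:**
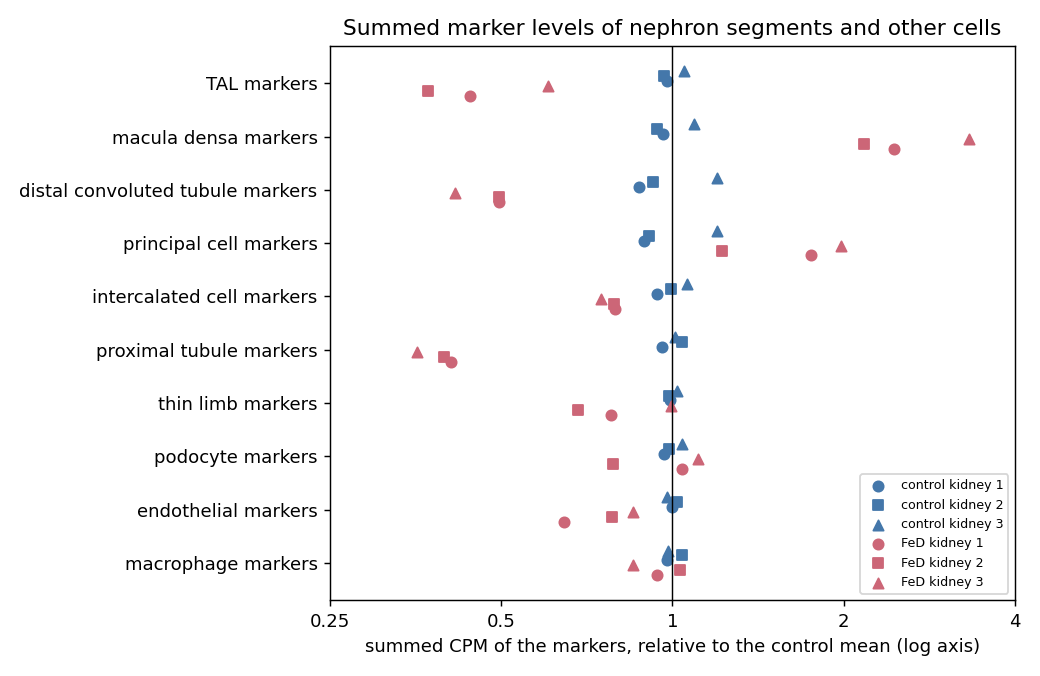
Summed CPM of each list of cell type markers in every kidney, relative to the control mean, on a log axis with 1 symbol per kidney. TAL, distal convoluted tubule and proximal tubule markers lie left of the controls in all FeD kidneys (TAL 1360 to 2217 against 3549 to 3867 CPM), and macula densa and principal cell markers lie to the right.

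Similarity of profiles was measured as the root mean square distance between log2 CPM values, each gene centred on its own mean, over the 6 kidneys. Among the 6 genes Umod and Kcnj1 were closest (0.0782), and Bsnd and Kcnj16 farthest apart (0.612). Slc12a1 was nearer to Kcnj16 (0.161) than to Umod (0.269). Over 12933 compared genes, Umod was nearest to Emilin1 (0.0137), Hyou1 (0.03) and Npnt (0.0363), and Bsnd to Lace1 (0.0239), Tufm (0.0414) and Bckdhb (0.045). Slc12a1 was nearest to Slc39a10 (0.0548), Neurl1b (0.0598) and the potassium channel gene Kcnj5 (0.064). The nearest to Kcnj1 was Hspa1a (0.0338), to Kcnj10 Slc16a1 (0.019) and to Kcnj16 Gmip (0.0207). These distances describe 6 kidneys that share 2 diets, and carry no test.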

How the data were processed

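Total RNA of whole kidneys was made into TruSeq libraries after poly-A selection. Per the labels and submitters' processing notes, the authors used CASAVA 1.8.2, Trimmomatic, TopHat2 2.0.11, HTSeq and the mm9 build, and deposited raw counts of reads per gene and kidney. The annotation, counting mode and strand setting are not given in the sources used here, so reads of near-identical or overlapping genes can be misassigned. Groups came from the labels, 3 kidneys each. Library totals ranged from 13732173 to 20853293 reads, and the floor of 3 counts covers counting error only.

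Counts were fitted in edgeR 4.0.16 (R 4.3.3) with filterByExpr, TMM factors and the quasi-likelihood test (glmQLFit, glmQLFTest), with Benjamini-Hochberg adjustment over 15145 genes. The SE was the log2 fold change divided by the square root of F. DESeq2 1.42.0, other scalings and filters, a replicate block and each kidney left out served as alternatives. The procedure was tested on simulated data. Ratios were compared by exact permutation. Positions and exon lengths came from GENCODE for NCBIM37 (mm9), and promoters from RefSeq (GRCm38.p6). The 6 genes, lists and motifs were chosen with earlier results of these data known. Named genes were the 6, the lists of partners, regulators and factors, called family members of at least 50 normalized counts, and the 3 nearest profiles of each gene. The promoter window was shortened to the bases before the start after the matches had been seen. Replicate numbers occur in both groups but mark different animals. Some genes of the lists and families entered the counts but are not reported here.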

Additional observations from a re-analysis of the deposited data

How the results depend on the processing

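Leaving out globin and mitochondrial genes removed no tested gene, so that alternative is void and is not counted. Bsnd was called lower in 12 of 12 other alternatives, with log2 fold changes of -1.04 to -0.93 when 1 kidney was left out. Leaving out 1 kidney gave -0.59 to -0.25 for Umod, -0.11 to 0.32 for Slc12a1, -0.45 to -0.14 for Kcnj1, -0.07 to 0.05 for Kcnj10 and 0.14 to 0.35 for Kcnj16. Slc12a1 turned to -0.11 and Kcnj10 to 0.05 without FeD kidney 3, Kcnj10 to 0.02 without control kidney 3, and the Kcnj10 to Slc12a1 ratio to 0.17 without FeD kidney 3 (range -0.32 to 0.17). Umod was called with DESeq2 (-0.39, DESeq2 adjusted P = 0.02), which brought the lower calls among the 6 genes to 2. The causes of these changes were not tested. With 1 kidney left out, lower calls among the 6 ranged from 1 to 3 and higher calls from 0 to 1. Among partners they were 3 to 5 lower and 1 to 2 higher, among regulators 2 to 5 lower and 5 to 6 higher, among transcription factors 0 to 4 lower, and among TAL markers 4 to 9 lower and 1 to 1 higher. At 2-fold or more, 0 partners were higher and 0 lower, 1 regulator was higher and 1 lower, 0 factors were lower, 0 TAL markers were higher and 2 lower, and 657 of all genes were higher and 862 lower. With library size in place of TMM, 2 factors were lower.

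Kidneys with the same replicate number did not deviate together (correlations of -0.279, -0.007 and -0.106), so the numbers do not pair the samples, and no kidney correlated best with its own number. With the replicate number as a block, Umod was at -0.42 (edgeR adjusted P = 0.025), 2 of the 6 genes and 2 factors were lower, and 1 partner was higher.

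With 3 kidneys a group, one of which stood apart, differences of the size seen for Umod, Kcnj1 and Kcnj16 could not be settled. Depth did not limit the 6 genes, since the lowest raw count among them was far above the floor.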
